A study of Homo sapiens with 12 samples.

Results

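The circadian clock genes described here are 10 transcription factors and repressors of the human molecular clock: DBP, TEF, PER1, PER2, PER3, CRY1, CRY2, NR1D1, NR1D2 and BHLHE40. Each was found as the row whose Ensembl identifier carries that symbol, which gave 10 of the 60676 gene rows, and all 10 were among the 16192 genes with enough counts to test. The genes were chosen by symbol after earlier results of the same counts had shown DBP among the largest falls with TGF-β in control cells and BHLHE40 among the rises with LETS1 in unstimulated cells, so the responses to TGF-β and that BHLHE40 value are given as a description: the number of these genes called there is printed beside that of all genes, and nothing is read from it. The cells were A549, an established human lung adenocarcinoma line, and all of them had been infected with lentivirus, selected in 1 ng/mL puromycin and cultured for another 3 days before the ligand was added. The 4 groups were LETS1 cells given TGF-β, LETS1 cells given ligand buffer, Co.vec cells given TGF-β and Co.vec cells given ligand buffer, with 3 libraries each. LETS1 cells carried the lentiviral vector expressing the long non-coding RNA LETS1, Co.vec cells carried the empty pCDH-EF1a-PURO vector, and TGF-β was used at 5 ng/mL for 4 h. LETS1 was thus expressed from an introduced vector in selected pools of 1 cell line, and whether each library came from its own transduction is not stated, so p-values measure the spread between these samples, which may be technical.

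The molecular clock is a feedback loop present in most cells, including lung epithelium. CLOCK or NPAS2 pairs with BMAL1 and switches on genes that carry an E-box, among them the PER, CRY, NR1D, DBP, TEF and BHLHE40 genes. PER and CRY proteins then enter the nucleus and repress CLOCK and BMAL1, NR1D1 and NR1D2 (REV-ERBα and REV-ERBβ) repress BMAL1 transcription through ROR elements, BHLHE40 (DEC1) competes for E-boxes, and the bZIP factors DBP and TEF carry the rhythm to genes with a D-box. In cultured cells the loops of single cells drift apart unless a serum, hormone or ligand pulse aligns them. The hour of harvest is not given in the sources used here, and 1 time point carries no information on phase or amplitude.

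The promoter windows of 6 of the genes are shown because the E-box and the D-box are the elements through which these genes are thought to regulate each other. They are RefSeq sequences (GRCh38.p14), each from 250 bases before to 50 bases after a transcription start, written 5′ to 3′ on the strand of the gene, with the E-box (CACGTG) and the D-box (TTATGTAA or TTACGTAA, on either strand) in capitals. No E-box and D-box match overlapped.
PER1, chr17:8152355-8152654, minus strand: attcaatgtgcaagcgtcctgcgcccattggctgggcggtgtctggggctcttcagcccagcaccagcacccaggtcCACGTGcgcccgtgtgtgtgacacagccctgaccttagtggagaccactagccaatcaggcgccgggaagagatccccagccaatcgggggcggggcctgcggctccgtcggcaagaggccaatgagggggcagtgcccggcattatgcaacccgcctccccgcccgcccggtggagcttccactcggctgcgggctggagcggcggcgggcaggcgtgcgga
TEF, chr22:41367205-41367504, plus strand: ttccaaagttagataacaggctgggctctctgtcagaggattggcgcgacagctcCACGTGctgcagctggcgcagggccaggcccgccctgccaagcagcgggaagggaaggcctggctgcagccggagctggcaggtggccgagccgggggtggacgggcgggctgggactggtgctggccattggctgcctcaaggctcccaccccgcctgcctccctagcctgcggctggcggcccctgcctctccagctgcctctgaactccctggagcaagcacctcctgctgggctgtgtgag
NR1D2, chr3:23945871-23946170, plus strand: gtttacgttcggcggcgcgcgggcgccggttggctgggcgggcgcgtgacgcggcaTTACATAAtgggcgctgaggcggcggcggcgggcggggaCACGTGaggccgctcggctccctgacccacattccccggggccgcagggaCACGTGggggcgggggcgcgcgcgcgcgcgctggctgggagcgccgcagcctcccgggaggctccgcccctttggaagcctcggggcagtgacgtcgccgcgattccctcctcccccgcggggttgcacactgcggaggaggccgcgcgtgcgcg
BHLHE40, chr3:4979187-4979486, plus strand: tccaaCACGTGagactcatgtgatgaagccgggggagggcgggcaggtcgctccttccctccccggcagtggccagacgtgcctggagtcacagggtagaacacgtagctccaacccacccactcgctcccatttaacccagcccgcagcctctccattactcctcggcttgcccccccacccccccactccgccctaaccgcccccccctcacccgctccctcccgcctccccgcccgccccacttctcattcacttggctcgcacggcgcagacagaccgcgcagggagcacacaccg
PER2, chr2:238288561-238288860, minus strand: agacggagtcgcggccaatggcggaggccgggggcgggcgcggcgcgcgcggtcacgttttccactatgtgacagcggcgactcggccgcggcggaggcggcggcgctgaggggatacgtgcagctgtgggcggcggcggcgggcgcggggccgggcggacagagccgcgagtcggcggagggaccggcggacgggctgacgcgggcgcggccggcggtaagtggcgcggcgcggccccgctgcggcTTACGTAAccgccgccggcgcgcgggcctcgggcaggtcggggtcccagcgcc
PER3, chr1:7784041-7784340, plus strand: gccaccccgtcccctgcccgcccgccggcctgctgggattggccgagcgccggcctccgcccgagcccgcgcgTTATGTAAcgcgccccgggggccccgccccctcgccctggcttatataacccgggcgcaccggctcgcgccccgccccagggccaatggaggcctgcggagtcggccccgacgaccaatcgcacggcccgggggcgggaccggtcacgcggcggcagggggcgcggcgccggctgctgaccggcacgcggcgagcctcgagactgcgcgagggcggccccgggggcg

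All 10 genes matched the promoter table, with 14 windows between them. The E-box was found in 5 of these windows, belonging to 4 genes, and in 7.26% of all 35116 windows of the same length. It began 173 bases before the start of PER1, 195 bases before that of TEF and 245 bases before that of BHLHE40, while the NR1D2 window held it at 155 and 105 bases. A D-box was found in 3 windows, those of PER2, PER3 and NR1D2, and in 1.01% of all windows; in PER2 it began 3 bases before the start. The palindromic SMAD element GTCTAGAC, the sequence that SMAD3 and SMAD4 bind most tightly, was in none of the 14 windows and in 0.202% of all windows, and nothing is drawn from its absence. The shorter SMAD motif CAGAC was found in 3 windows, those of PER1, CRY2 and BHLHE40, and in 45.3% of all windows. AGGTCA, the core letters of the ROR element, was in 3 windows, of PER1 and CRY2, against 13.8% of all windows. The longer full ROR element was not searched. The cAMP element TGACGTCA was in none, against 1.85%. A match describes the letters in a window and says nothing on binding.

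Each library held 19705135 to 20351043 fragments counted in genes, and all levels are CPM, the count relative to the TMM-scaled library size. The epithelial keratins KRT8 and KRT18 and the A549 enzymes ALDH1A1, ALDH3A1, AKR1C1 and NQO1 were each at 1107 CPM or more in every library. The epithelial markers CDH1 and EPCAM were lower, at 66.7 to 100 CPM for CDH1 and 6.51 to 8.71 CPM for EPCAM. CDKN2A, which A549 cells have lost, had 2 counts over all 12 libraries. Only 2 of the 12 markers of non-epithelial or liver cells passed the filter on low counts; the leukocyte markers PTPRC, CD3E and CD68 had 5, 1 and 1 counts in all. The summed level of the 12 ran from 4.01 to 4.66 CPM in LETS1 cells with TGF-β, 2.699 to 4.64 CPM in LETS1 cells in buffer, 2.36 to 2.63 CPM in Co.vec cells with TGF-β and 2.20 to 2.87 CPM in Co.vec cells in buffer. TGF-β was active in both cell pools, with log2 fold changes of 1.65 in LETS1 cells and 1.65 in Co.vec cells for SKIL, 1.99 and 2.06 for CCN2, 2.18 and 2.61 for PMEPA1 and 0.52 and 1.01 for SMAD7, all targets of TGF-β. The response of PMEPA1 and SMAD7 was thus smaller in LETS1 cells, by an interaction (the response in LETS1 cells minus that in Co.vec cells) of -0.43 for PMEPA1 (edgeR adjusted p 3.61e-05) and -0.49 for SMAD7 (0.00846, 0.0653 without the third LETS1 library in buffer); in buffer both were higher in LETS1 than in Co.vec cells, by 0.45 and 0.65 on the log2 scale. The level of LETS1 itself was not analysed here.

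The 10 genes differed widely in level. Per kilobase of exon, BHLHE40 was the most abundant in each group, at 112 ± 2.38 CPM per kb in LETS1 cells with TGF-β, 88.9 ± 7.62 in LETS1 cells in buffer, 105 ± 5.10 in Co.vec cells with TGF-β and 57.0 ± 0.391 in Co.vec cells in buffer (SD, n = 3). NR1D2 was next in buffer, at 8.98 ± 0.801 CPM per kb in LETS1 cells and 9.38 ± 0.463 CPM per kb in Co.vec cells. With TGF-β, CRY1 and NR1D2 shared the second place, their libraries overlapping in both pools. DBP was the lowest in both TGF-β groups, at 0.0879 ± 0.0428 CPM per kb in LETS1 cells and 0.125 ± 0.0295 CPM per kb in Co.vec cells. In buffer the bottom of the order was DBP and PER3, which overlapped in LETS1 cells and not in Co.vec cells, where PER3 was lowest at 0.654 ± 0.0272 CPM per kb. Next above them in buffer stood CRY2, TEF and PER1; CRY2 and TEF overlapped in both pools, and TEF and PER1 in Co.vec cells only.

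**Figure D1:**
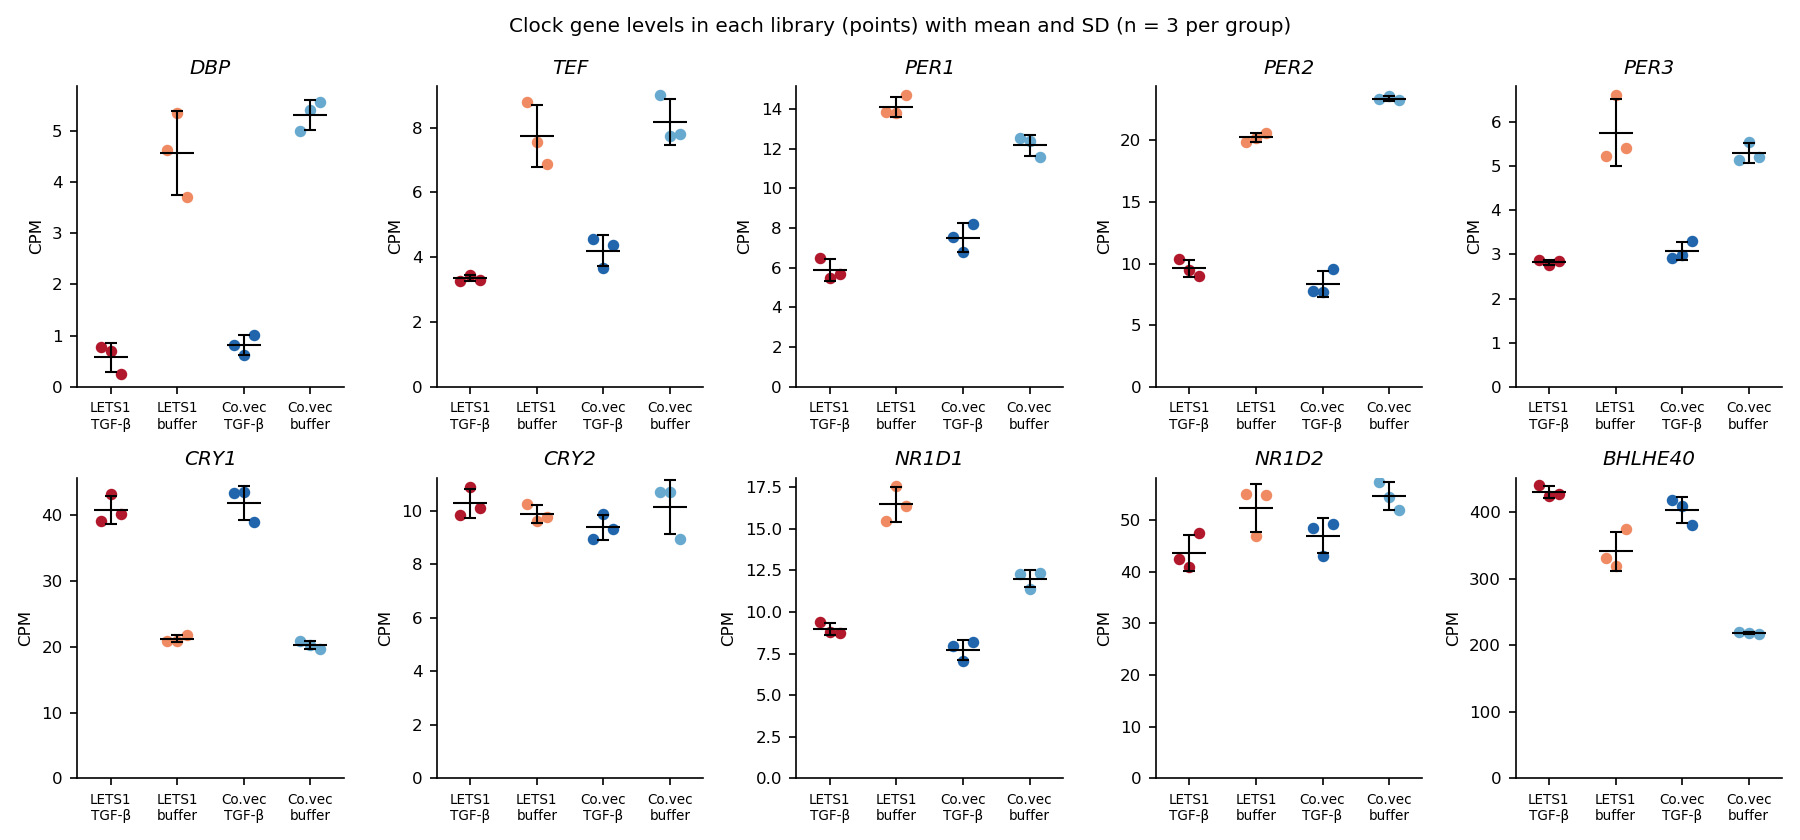
Level of each of the 10 clock genes in CPM (y axes start at 0 and differ between panels) in every library (points) of the 4 groups (x axes), with the group mean and SD (horizontal line and bar, n = 3). The TGF-β groups lie below the buffer groups for DBP, TEF, the 3 PER genes and NR1D1 and above them for CRY1, and BHLHE40 in LETS1 cells in buffer (318.8 to 374 CPM) lies between Co.vec cells in buffer and the TGF-β groups.

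Treatment with TGF-β for 4 h was accompanied by lower levels of most of the clock's own repressors and output factors, with CRY1 and BHLHE40 moving the other way and CRY2 staying within its spread. In LETS1 cells 7 of the 10 genes were called lower with TGF-β and 2 higher, at an adjusted p under 0.05 by the edgeR quasi-likelihood test, where 19.1% and 19.7% of all 16192 genes were called lower and higher. In Co.vec cells the same test called 7 lower and 2 higher, with 18.6% and 21.1% of all genes. The median log2 fold change of the 10 was -0.95 in LETS1 cells and -0.66 in Co.vec cells, with -0.02 over all genes tested in each. Since the genes were selected on this response, nothing is read from these counts. Fewer cells of a type and less RNA per cell cannot be told apart in bulk samples such as these.

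DBP moved furthest of the 10. DBP, an activator of D-box genes in liver and other tissues, had 0.769, 0.702 and 0.254 CPM in LETS1 cells with TGF-β, against 4.64, 5.35 and 3.71 CPM in LETS1 cells in buffer. In Co.vec cells it had 0.822, 0.618 and 1.00 CPM with TGF-β and 4.99, 5.40 and 5.56 CPM in buffer. Every TGF-β library lay far below every buffer library in both pools. The log2 fold change was -2.98 in LETS1 cells (SE 0.24), a 7.86-fold lower level, and -2.69 in Co.vec cells (SE 0.21), 6.47-fold lower. Of the 16192 genes tested, 7 in LETS1 cells and 3 in Co.vec cells, DBP included, had as low a fold change. The rank in Co.vec cells restates a result the genes were chosen on, so both ranks are only a description. These values rest on few fragments, 5 to 15 per library in LETS1 cells with TGF-β and 12 to 20 in Co.vec cells with TGF-β, against 76 to 109 in LETS1 cells in buffer and 101 to 111 in Co.vec cells in buffer. TEF, the related bZIP factor, had 3.28, 3.46 and 3.30 CPM in LETS1 cells with TGF-β, against 8.79, 7.56 and 6.89 CPM in LETS1 cells in buffer. Its Co.vec values were 4.57, 3.66 and 4.37 CPM with TGF-β and 8.99, 7.73 and 7.81 CPM in buffer. Its groups were as cleanly apart as those of DBP but the distance was smaller, with log2 fold changes of -1.21 in LETS1 cells (SE 0.13) and -0.96 in Co.vec cells (SE 0.12).

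The 3 PERIOD genes, whose proteins form the repressive complex with CRY, were all lower with TGF-β. PER1 had 6.51, 5.47 and 5.69 CPM in LETS1 cells with TGF-β, against 13.9, 13.8 and 14.7 CPM in LETS1 cells in buffer. In Co.vec cells it had 7.55, 6.80 and 8.23 CPM with TGF-β and 12.6, 12.4 and 11.6 CPM in buffer. The gap was wider in LETS1 cells, which were the lowest group with TGF-β and the highest in buffer: the log2 fold change was -1.26 in LETS1 cells (SE 0.10) and -0.69 in Co.vec cells (SE 0.10). PER2 had 10.4, 9.48 and 8.997 CPM in LETS1 cells with TGF-β, against 19.9, 20.2 and 20.6 CPM in LETS1 cells in buffer. Its Co.vec values were 7.76, 7.73 and 9.59 CPM with TGF-β and 23.3, 23.6 and 23.2 CPM in buffer. PER2 ran the opposite way to PER1 between the pools, with log2 fold changes of -1.07 in LETS1 cells (SE 0.08) and -1.48 in Co.vec cells (SE 0.09). PER3 had 2.87, 2.76 and 2.85 CPM in LETS1 cells with TGF-β, against 5.22, 6.62 and 5.42 CPM in LETS1 cells in buffer. In Co.vec cells it had 2.93, 2.99 and 3.31 CPM with TGF-β and 5.14, 5.55 and 5.21 CPM in buffer. No TGF-β library of PER3 reached a buffer library, and its log2 fold change was -1.03 in LETS1 cells (SE 0.14) and -0.78 in Co.vec cells (SE 0.14).

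The 2 cryptochromes, partners of PER in repression, parted. CRY1 had 39.1, 43.2 and 40.3 CPM in LETS1 cells with TGF-β, against 20.9, 21.0 and 21.9 CPM in LETS1 cells in buffer. Its Co.vec values were 43.4, 43.5 and 38.9 CPM with TGF-β and 20.9, 20.2 and 19.6 CPM in buffer. All 6 TGF-β libraries were well above all 6 buffer libraries, by 1.92-fold in LETS1 cells (log2 fold change 0.94, SE 0.06) and 2.07-fold in Co.vec cells (1.05, SE 0.07). CRY2 ran from 9.84 to 10.9 CPM in LETS1 cells with TGF-β, 9.62 to 10.3 CPM in LETS1 cells in buffer, 8.94 to 9.89 CPM in Co.vec cells with TGF-β and 8.97 to 10.7 CPM in Co.vec cells in buffer. The CRY2 groups overlapped throughout. Its log2 fold change with TGF-β was 0.06 in LETS1 cells (95% interval -0.13 to 0.24) and -0.11 in Co.vec cells (-0.30 to 0.08).

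The heme-binding nuclear receptors NR1D1 and NR1D2, which repress BMAL1, were both lower with TGF-β, by different amounts. NR1D1 had 9.38, 8.83 and 8.74 CPM in LETS1 cells with TGF-β, against 15.5, 17.6 and 16.4 CPM in LETS1 cells in buffer. In Co.vec cells it had 7.96, 7.06 and 8.18 CPM with TGF-β and 12.3, 11.4 and 12.3 CPM in buffer. The 4 groups of NR1D1 did not overlap, and the log2 fold change was -0.87 in LETS1 cells (SE 0.09) and -0.63 in Co.vec cells (SE 0.10). NR1D2 had 42.4, 40.9 and 47.6 CPM in LETS1 cells with TGF-β, against 55.1, 46.9 and 54.8 CPM in LETS1 cells in buffer. The Co.vec libraries had 48.6, 43.0 and 49.2 CPM with TGF-β and 57.4, 54.5 and 52.0 CPM in buffer. The NR1D2 groups overlapped in LETS1 cells and lay close together in Co.vec cells, with log2 fold changes of -0.26 in LETS1 cells (SE 0.07) and -0.22 in Co.vec cells (SE 0.07); without the second library of Co.vec cells with TGF-β the Co.vec value was -0.15 and it was not among the genes called.

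BHLHE40, a bHLH repressor that many signals induce, was the other gene higher with TGF-β. It had 441, 423 and 426 CPM in LETS1 cells with TGF-β, against 330.4, 319 and 374 CPM in LETS1 cells in buffer. The Co.vec libraries had 419, 409 and 381 CPM with TGF-β and 220.3, 218 and 217 CPM in buffer. The TGF-β groups stood close to each other, while the buffer groups were wide apart, LETS1 above Co.vec. The log2 fold change with TGF-β was 0.33 in LETS1 cells (SE 0.05) and 0.88 in Co.vec cells (SE 0.05). Of the genes whose printed windows hold an E-box, PER1, TEF and NR1D2 were lower, NR1D2 by the least, and BHLHE40 was higher. Only the exact letters CACGTG within these windows were searched, and the part of E-boxes in the responses was not tested.

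**Figure D2:**
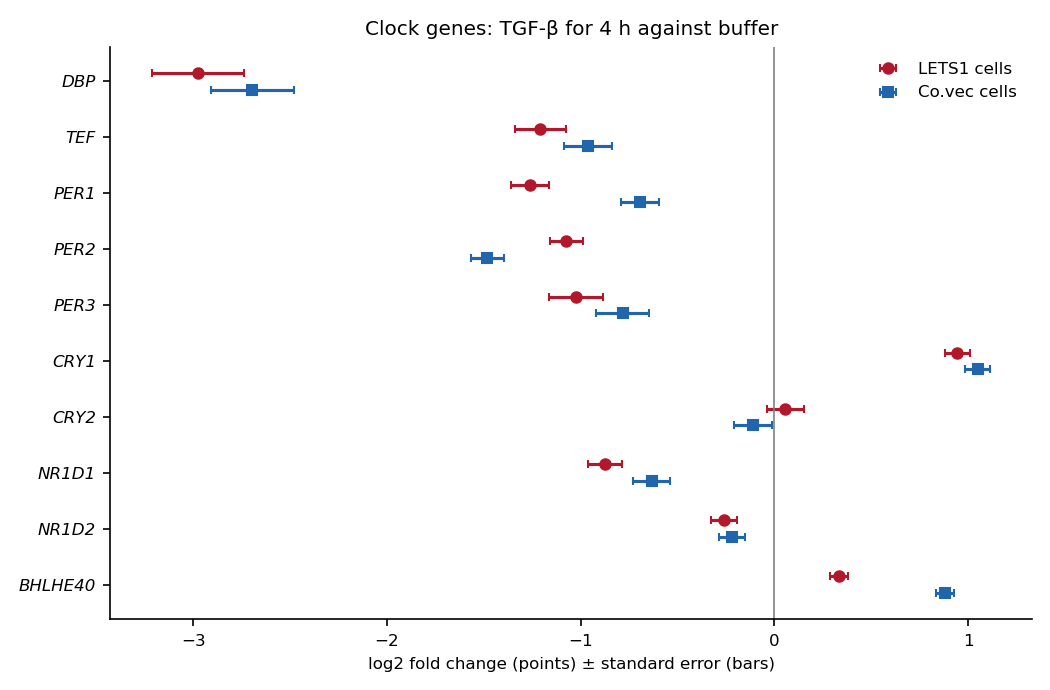
Log2 fold change of TGF-β against buffer (x axis) for the 10 clock genes (y axis) in LETS1 cells (circles) and Co.vec cells (squares), with standard errors as bars. DBP lies furthest left, at -2.98 in LETS1 cells and -2.69 in Co.vec cells, CRY1 and BHLHE40 lie right of 0, and CRY2 straddles it.

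Between LETS1 and Co.vec cells in buffer the 10 clock genes differed little, apart from NR1D1 and BHLHE40. Of the 10 genes 2 were called higher and 1 lower, with 8.57% and 6.56% of all genes, and their median log2 fold change was 0.02, with 0.01 over all genes. NR1D1 was 1.37-fold higher in LETS1 cells, with each LETS1 library (15.5 to 17.6 CPM) above each Co.vec library (11.4 to 12.3 CPM). On the log2 scale the difference was 0.46 (SE 0.08) with an adjusted p of 8.03e-05 by edgeR, higher in 3 of 3 LETS1 libraries, and the adjusted p stayed at or under 0.00215 when any 1 of the 12 libraries was left out. BHLHE40 was 1.56-fold higher in LETS1 cells, at 341 ± 29.2 CPM, against 219 ± 1.499 CPM in Co.vec cells (SD, n = 3), a log2 fold change of 0.64 (SE 0.05) that belongs to the values the genes were selected on. The third LETS1 library in buffer was the highest for BHLHE40, and without it the log2 fold change was 0.57.

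PER2 was 1.16-fold lower in LETS1 cells in buffer, at 20.2 ± 0.370 CPM, against 23.4 ± 0.183 CPM in Co.vec cells (SD, n = 3), with no overlap. The difference of -0.21 on the log2 scale (SE 0.07) passed narrowly (edgeR adjusted p 0.0487), and it did not pass when any of 8 of the 12 libraries was left out, namely each of the 6 buffer libraries and the second and the third of LETS1 cells with TGF-β (adjusted p up to 0.142), nor by DESeq2 (0.111). PER1 lay on the other side, with 14.1 ± 0.506 CPM in LETS1 cells and 12.2 ± 0.526 CPM in Co.vec cells (SD, n = 3). The libraries did not overlap, but its log2 fold change of 0.21 did not pass over all genes (edgeR adjusted p 0.0963). The other 6 genes had log2 fold changes from -0.22 for DBP to 0.12 for PER3, all with overlapping libraries and edgeR adjusted p of 0.377 or more. The 95% interval of DBP ran from -0.51 to 0.07 and that of CRY1 from -0.07 to 0.21.

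With TGF-β, 1 of the 10 clock genes, PER1, was called lower in LETS1 than in Co.vec cells. That count is near the 6.5% of all genes called lower. By edgeR 0 of the 10 were called higher, with 7.58% of all genes; 2 of them, PER2 and NR1D1, were higher at an unadjusted p under 0.05, and DESeq2 called 0 in either direction. PER1 averaged 5.89 ± 0.548 CPM in LETS1 cells and 7.53 ± 0.715 CPM in Co.vec cells (SD, n = 3), lower in 3 of 3 LETS1 libraries. Its log2 fold change was -0.36 (SE 0.11, edgeR adjusted p 0.0243), and the call was lost without the first (adjusted p 0.0585) or the third (0.122) Co.vec library with TGF-β, without the second (0.124) or the third (0.078) LETS1 library with TGF-β, and by DESeq2 (0.0622). TEF was also lower in every LETS1 library with TGF-β, by -0.33 on the log2 scale (SE 0.15), which did not pass (edgeR adjusted p 0.147). The genes higher in buffer did not pass here: the difference was 0.22 on the log2 scale for NR1D1 (SE 0.10) and 0.09 for BHLHE40 (SE 0.05), with adjusted p of 0.164 and 0.197 by edgeR. DBP, at -0.50, had the widest 95% interval, from -1.17 to 0.17. The remaining values were 0.20 for PER2, -0.12 for PER3, -0.04 for CRY1, 0.13 for CRY2 and -0.11 for NR1D2, with adjusted p of 0.191 or more by edgeR. The median over the 10 genes was -0.07, with -0.0004 over all genes.

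**Figure D3:**
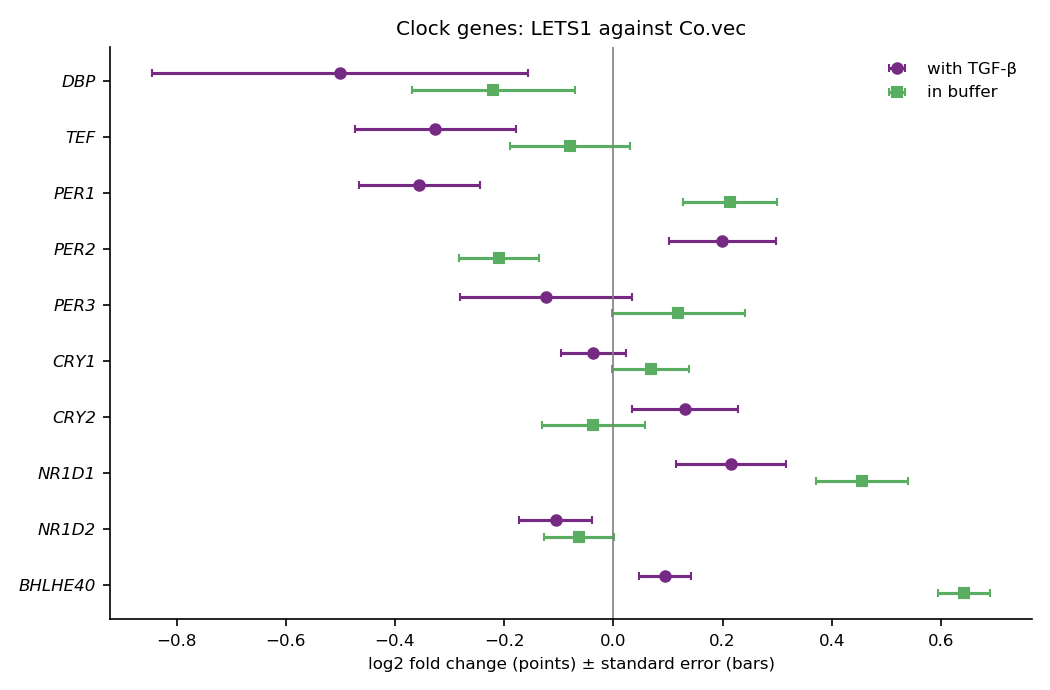
Log2 fold change of LETS1 against Co.vec cells (x axis) for the 10 clock genes (y axis) with TGF-β (circles) and in buffer (squares), with standard errors as bars. NR1D1 and BHLHE40 lie furthest right in buffer, at 0.46 and 0.64, and PER1, PER2, PER3, CRY1 and CRY2 change sides of 0 between the conditions.

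The ligand response itself was compared between the pools by the interaction, as for PMEPA1 and SMAD7. Of the 10 genes 2 were called lower, with 0.599% of all genes. By edgeR 0 were called higher, with 0.0803% of all genes; 1 of them, PER2, was higher at an unadjusted p under 0.05, and DESeq2 called BHLHE40 lower and 0 genes higher. This contrast shares its libraries with the responses the genes were selected on, so nothing is read from these counts. The BHLHE40 interaction of -0.55 on the log2 scale is the LETS1 difference of 0.09 with TGF-β less that of 0.64 in buffer. It therefore rests on the buffer value the genes were selected on and is given as a description. PER1 had -0.57 (SE 0.14, edgeR adjusted p 0.0378), also given only as a description, since it is built from the ligand responses. In these libraries its fall was larger in LETS1 cells, which stood above Co.vec cells in buffer and below them with TGF-β. That call was lost when any of 9 libraries was left out, all but the first library of Co.vec cells in buffer, the second of Co.vec cells with TGF-β and the first of LETS1 cells with TGF-β, and the adjusted p then ranged up to 0.175. PER2 had 0.41 with the opposite sign (SE 0.12, edgeR adjusted p 0.164), and passed only without the third library of Co.vec cells with TGF-β, at 0.52 (adjusted p 0.0263); without that library it was also called higher in LETS1 cells with TGF-β, at 0.31 (adjusted p 0.0438). For the other 7 genes the interaction lay between -0.28 for DBP and 0.17 for CRY2, with edgeR adjusted p of 0.709 or more. The part of the smaller PMEPA1 and SMAD7 responses of LETS1 cells in these values was not tested. The 95% interval of the interaction was -1.01 to 0.45 for DBP and -0.29 to 0.08 for CRY1.

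Some markers moved with LETS1 as well. Of 8 epithelial and A549 markers 4 were lower in LETS1 cells in both conditions (KRT8, KRT18, ALDH3A1 and AKR1C1, edgeR adjusted p 2.33e-05 or less), where 6.5% of all genes were lower with TGF-β and 6.56% in buffer. The median of the 8 was -0.17 with TGF-β and -0.22 in buffer, with -0.0004 and 0.01 over all genes. EPCAM, NQO1, ALDH1A1 and CDH1, the adhesion protein of epithelia, did not pass between LETS1 and Co.vec cells in either condition. Their log2 fold changes with TGF-β and in buffer were 0.06 and 0.03 for CDH1 and -0.09 and 0.19 for EPCAM. NQO1 had -0.08 and -0.09, and ALDH1A1 had -0.04 and -0.06. CDH1 was lower with TGF-β against buffer, at -0.39 in LETS1 cells and -0.43 in Co.vec cells (edgeR adjusted p 2.8e-08 or less). LUM, a matrix proteoglycan of fibroblasts, was higher in LETS1 than in Co.vec cells by 2.34 on the log2 scale with TGF-β and 2.17 in buffer, at 1.88 CPM or less in every library. The part of these marker differences in those of NR1D1 and BHLHE40 was not tested.

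Around the 10 genes, BMAL1 was higher with TGF-β in both pools, and HLF, NFIL3, CIART and TIMELESS were lower. They come from lists that were written, like that of the enzymes below, with earlier results of these counts known. Of the 7 activators and ROR receptors 5 had enough counts to test; 3 of the 5 were called higher in LETS1 cells, where 19.7% of all genes were, and 1 of the 5 in Co.vec cells, where 21.1% were, so the Co.vec count is near the share of all genes. The others did not pass. The median of the 5 was 0.25 in LETS1 cells and 0.13 in Co.vec cells, with -0.02 over all genes in each. BMAL1, the obligate partner of CLOCK, averaged 28.0 ± 2.46 CPM with TGF-β and 19.5 ± 1.29 CPM in buffer in LETS1 cells, and 25.2 ± 3.06 CPM with TGF-β and 19.8 ± 0.561 CPM in buffer in Co.vec cells (SD, n = 3). Its log2 fold change was 0.52 in LETS1 cells (edgeR adjusted p 7.48e-07) and 0.34 in Co.vec cells (0.000602). NPAS2, the alternative partner of BMAL1, had 0.29 in LETS1 cells (edgeR adjusted p 5.47e-05) and 0.13 in Co.vec cells (0.057). BMAL2 had 0.25 in LETS1 cells (edgeR adjusted p 0.0013) and 0.16 in Co.vec cells (0.0512). The Co.vec values of both stand at the threshold: NPAS2 passed without any of 3 libraries and BMAL2 without any of 6. CLOCK did not pass in either pool, at -0.14 in LETS1 cells (edgeR adjusted p 0.0889) and -0.05 in Co.vec cells (0.592), and neither did the receptor RORA, at -0.35 (0.303) and -0.23 (0.504). The interaction of BMAL1 was 0.18 and did not pass (edgeR adjusted p 0.781). In LETS1 against Co.vec cells in buffer 1 of the 5 was lower, with 6.56% of all genes, NPAS2 at -0.18 (edgeR adjusted p 0.0242). With TGF-β 1 of the 5 was higher, with 7.58% of all genes, BMAL2 at 0.24 (edgeR adjusted p 0.00743). The rest did not pass in these 2 comparisons. NPAS2 lost its call without any of 4 libraries and BMAL2 without 1.

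Of 5 further repressors and bZIP factors 4 were lower with TGF-β in both pools, where 19.1% of all genes were lower in LETS1 cells and 18.6% in Co.vec cells, and the other one did not pass. Their median was -0.96 in LETS1 cells and -0.94 in Co.vec cells, with -0.02 over all genes in each. HLF, the PAR bZIP factor related to DBP and TEF, averaged 0.677 ± 0.251 CPM with TGF-β and 2.82 ± 0.667 CPM in buffer in LETS1 cells, and 0.799 ± 0.130 CPM with TGF-β and 3.89 ± 0.298 CPM in buffer in Co.vec cells (SD, n = 3). Its log2 fold change was -2.05 in LETS1 cells (edgeR adjusted p 6.78e-09) and -2.27 in Co.vec cells (4.99e-11), so that all 3 PAR bZIP genes were lower. NFIL3, which competes with them at D-boxes as a repressor, was lower too, with a log2 fold change of -0.96 in LETS1 cells (edgeR adjusted p 8.96e-11) and -0.94 in Co.vec cells (4.39e-11). CIART, a repressor of CLOCK and BMAL1, was lower as well, at -2.54 in LETS1 cells (edgeR adjusted p 2.98e-05) and -2.17 in Co.vec cells (0.000182), from 9 fragments with TGF-β against 56 in buffer over the 3 LETS1 libraries and 11 against 52 over the 3 Co.vec libraries. TIMELESS, which in mammals acts mainly at replication forks, was lower, at -0.26 in LETS1 cells (edgeR adjusted p 1.14e-05) and -0.28 in Co.vec cells (5.77e-06). BHLHE41, the paralogue of BHLHE40, did not pass (edgeR adjusted p 0.904 in LETS1 cells and 0.206 in Co.vec cells).

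Of 14 kinases, ligases and other enzymes that modify clock proteins, 7 were higher with TGF-β in each pool, where 19.7% of all genes were higher in LETS1 cells and 21.1% in Co.vec cells, and the others did not pass. Their median was 0.14 in LETS1 cells and 0.12 in Co.vec cells, with -0.02 over all genes in each. CSNK1E, a kinase that marks PER proteins for destruction, had a log2 fold change of 0.34 in LETS1 cells (edgeR adjusted p 9.65e-05) and 0.57 in Co.vec cells (8.79e-09). PRKAA2, an AMPK subunit, had 0.40 in LETS1 cells (edgeR adjusted p 1.47e-06) and 0.60 in Co.vec cells (6.16e-10). PRKAA1, the other catalytic AMPK subunit, had 0.13 in LETS1 cells and 0.16 in Co.vec cells, CSNK1D, the kinase closest to CSNK1E, 0.15 and 0.13, and the corepressor NCOR1 0.14 and 0.16 (edgeR adjusted p 0.0289 or less). FBXW11, a ubiquitin ligase subunit, passed in LETS1 cells at 0.14 (edgeR adjusted p 0.0195), and USP2, a deubiquitinase, in Co.vec cells at 0.78 (SE 0.29, edgeR adjusted p 0.028). Each of these 5 genes lost a call when 1 library was left out. The count depends on single libraries: 3 of 14 passed in LETS1 cells without the second LETS1 library in buffer, and 3 of 14 in Co.vec cells without the third Co.vec library in buffer, close to the share of all genes. In LETS1 against Co.vec cells in buffer 2 of the 14 were higher, with 8.57% of all genes, PRKAA2 at 0.37 (edgeR adjusted p 4.42e-05) and SIRT1 at 0.19 (0.0144); SIRT1 did not pass without any of 3 libraries.

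**Figure D4:**
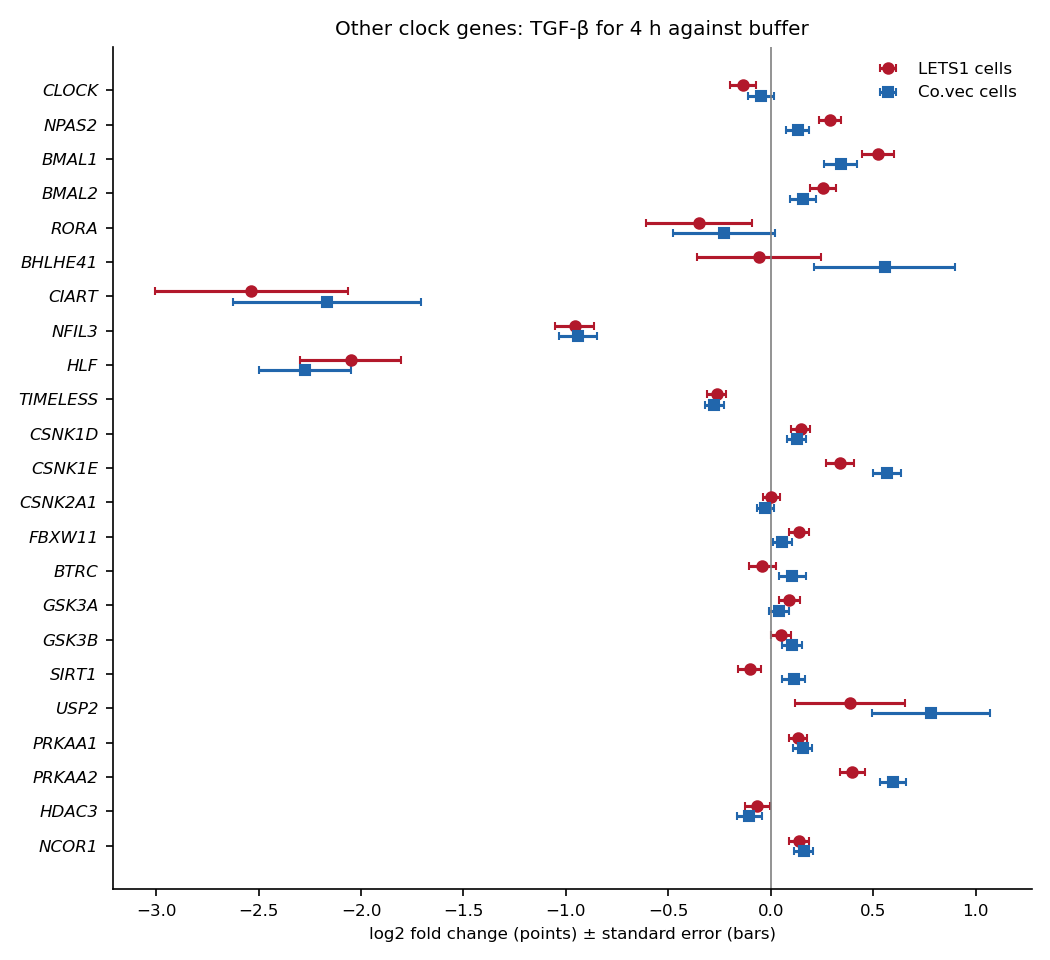
Log2 fold change of TGF-β against buffer (x axis) for the other clock genes named on the y axis in LETS1 cells (circles) and Co.vec cells (squares), with standard errors as bars. HLF (-2.05 in LETS1 cells and -2.27 in Co.vec cells) and CIART lie furthest left, and BMAL1 and CSNK1E lie right of 0.

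The pattern over the 12 libraries was compared between genes by the root mean square difference of their centred log2 CPM, so that a small value means a like pattern. Among the 10, PER1 and PER3 had the smallest difference, at 0.147, and TEF was closest to PER1, at 0.170. CRY1 was closest to BHLHE40, at 0.288. The nearest to DBP was PER2, at 0.828. The measure grows with a gene's own spread over the libraries, which was 1.42 for DBP, 0.50 for CRY1 and 0.51 for PER1, so these distances do not rank the pairs on 1 scale. Among all other genes of at least 5 CPM the nearest to DBP were SOX2 (0.483), CXCL2 (0.490), RHOV (0.586), DAPK1 (0.587) and RNF43 (0.637). Those nearest to NR1D1 were SOCS3 (0.0887), BCL3 (0.0961), MYBL1 (0.111), WWC1 (0.119) and CDCA7 (0.12), and those nearest to BHLHE40 were ID1 (0.101), RUSC2 (0.103), CGAS (0.103), TENT4A (0.106) and ZNF250 (0.108). The log2 fold changes of ID1 with TGF-β were 0.28 in LETS1 cells and 0.81 in Co.vec cells. These are descriptions over 12 libraries of 4 groups, chosen from the whole table.

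Some of the genes share exon bases with a neighbour on the opposite strand, and whether the counting used strand is not given in the sources used here. The largest shares in GENCODE release 29 were 10.7% of the exon bases of PER3 with UTS2, 10.1% of those of DBP with SPHK2 and 9.49% of those of NR1D1 with THRA; for the other members they were 2.73% or less. SPHK2 was itself lower with TGF-β, with a log2 fold change of -0.41 in LETS1 cells (edgeR adjusted p 0.000128) and -0.63 in Co.vec cells (9.1e-08), against -2.98 for DBP in LETS1 cells and -2.69 in Co.vec cells. THRA differed between LETS1 and Co.vec cells in buffer by -0.08 (edgeR adjusted p 0.36). UTS2 was not among the genes with enough counts to test. The part of these overlaps in the values of PER3, DBP and NR1D1 was not tested.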

How the data were processed

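RNA of A549 cells was sequenced in 12 libraries, 3 in each of 4 groups. The authors deposited raw counts per gene; per the submitters' processing notes the tools were FastQC, cutadapt 2.10, STAR 2.7.5a and HTSeq 0.12.4 with GRCh38, and the sources used here do not give the strand setting or annotation release. The 5 rows that name no gene were left out; those matching several genes made up 10.1% to 10.9% of each library. Symbols matched 60357 of 60676 rows, and exon lengths came from GENCODE release 29.

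Genes were kept by filterByExpr of edgeR 4.0.16 (R 4.3.3), scaled by TMM and fitted with 1 mean per group over all 12 libraries by the robust quasi-likelihood model. Benjamini-Hochberg adjustment ran over all 16192 genes within each of 5 contrasts, with a threshold of 0.05. Each SE was derived from the F statistic, dividing the log2 fold change by its root, and a 95% interval is 1.96 SE each way. The likeness of patterns used log2 CPM with a prior count of 2 and genes of at least 5 CPM. The fit was tested on simulated data. Replicate numbers did not pair the libraries (0 of 18 same-number pairs correlated over 0.1). The members and the gene lists were chosen with earlier results of these data known. Named genes were the members, list genes past the threshold or defining a list, and the 5 nearest in pattern; some list genes are not reported here by name, though the counts include them. Alternatives were RLE size factors, no filter, a replicate block, each library left out, DESeq2 1.42.0 and the 6 libraries compared alone.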

Additional observations from a re-analysis of the deposited data

Results flagged for a closer look

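Among the clock genes and the listed genes around them, 8 of those reported had a TGF-β response that differed between LETS1 and Co.vec cells by the edgeR interaction test (response in LETS1 cells minus that in Co.vec cells, log2). Of the 10 clock genes these were PER1, at -0.57 (adjusted p 0.0378, lost without any of 9 of the 12 libraries), and BHLHE40, at -0.55. Both are only a description. The BHLHE40 value rests on the buffer difference the genes were selected on, and the PER1 value is built from the ligand responses. Of the clock output genes it was KLF10, a TGF-β induced zinc finger factor that is also under clock control, at -0.78 (adjusted p 1.55e-07). Of the CREB and glucocorticoid receptor targets they were DUSP1, a phosphatase of MAP kinases, at -1.29 (adjusted p 1.1e-06), FOS at -1.77 (adjusted p 1.58e-05) and NR4A1 at -1.72 (adjusted p 0.00163). Of the TGF-β targets they were PMEPA1 at -0.43 (adjusted p 3.61e-05) and SMAD7 at -0.49 (adjusted p 0.00846). In each of the 8 the response was more negative or less positive in LETS1 cells. Of all 16192 genes tested, 97 (0.599%) were called lower by the interaction and 13 (0.0803%) higher, so that direction is not particular to these genes.

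KLF10 had a log2 fold change with TGF-β of -0.53 in LETS1 cells and 0.25 in Co.vec cells. DUSP1 had -0.77 in LETS1 cells and 0.52 in Co.vec cells, so both responses had opposite signs in the pools. The KLF10 level was 104 ± 2.49 CPM with TGF-β and 151 ± 19.1 CPM in buffer in LETS1 cells. In Co.vec cells it was 102 ± 2.34 CPM with TGF-β and 86.0 ± 1.37 CPM in buffer (SD, n = 3). LETS1 and Co.vec cells thus differed in KLF10 by 0.03 on the log2 scale with TGF-β and by 0.81 in buffer. For DUSP1 they differed by 0.41 with TGF-β and by 1.70 in buffer. FOS had -4.12 in LETS1 cells and -2.35 in Co.vec cells. Its level was 3.74 ± 0.752 CPM with TGF-β and 65.2 ± 6.79 CPM in buffer in LETS1 cells, and 4.03 ± 0.335 CPM with TGF-β and 20.5 ± 3.32 CPM in buffer in Co.vec cells (SD, n = 3). NR4A1 stood the same way, at 12.8 ± 1.63 CPM with TGF-β and 83.3 ± 16.04 CPM in buffer in LETS1 cells, and 12.1 ± 0.915 CPM with TGF-β and 23.9 ± 1.25 CPM in buffer in Co.vec cells (SD, n = 3).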

How the results depend on the processing

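The number of genes called stayed within 1.5 times the main count in all 84 alternatives: with 1 library left out it ran from 1819 to 2611 for LETS1 against Co.vec in buffer, 1710 to 2401 with TGF-β, 5487 to 6485 for the ligand in LETS1 cells, 5479 to 6477 in Co.vec cells and 78 to 134 for the interaction. Of the 10 clock genes the number called then ran from 2 to 3 in buffer, 0 to 1 with TGF-β, 9 to 9 for the ligand in LETS1 cells, 8 to 9 in Co.vec cells and 1 to 2 for the interaction. DESeq2 called 0 clock genes for LETS1 against Co.vec with TGF-β. For the interaction DESeq2, the fit with no filter and the replicate block each called 1. With the replicate block the adjusted p was 0.0626 for PER2 in buffer and 0.0517 for the PER1 interaction, and no other clock gene call changed. With no filter these were 0.051 and 0.0523, and with DESeq2 0.111 and 0.0982; the cause was not tested. Same-number libraries correlated between -0.057 and 0.047, which shows no pairing by number. Correlations over all genes cannot exclude a weaker pairing, such as a shared culture. Values that did not pass and lay near 0 changed sign when 1 library was left out: CRY2 in buffer ran from -0.11 to 0.0050 (positive without the first or second Co.vec library in buffer), NR1D2 in buffer from -0.10 to 0.0072 (positive without the second LETS1 library in buffer), and in the interaction DBP ran from -0.54 to 0.067 (positive without the third LETS1 library with TGF-β) and NR1D2 from -0.11 to 0.0018 (positive without the second). DBP, with 5 to 20 fragments in the TGF-β libraries, had the largest SE of the 10 genes in all 5 contrasts.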

Other observations

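The clock's output genes, a list written with earlier results of these counts known, moved in both directions with TGF-β. Of the 9 with enough counts, 4 were higher and 5 lower in LETS1 cells, and 5 higher and 4 lower in Co.vec cells, KLF10 being the gene that changed sides; of all genes 19.7% were higher and 19.1% lower in LETS1 cells, and 21.1% higher and 18.6% lower in Co.vec cells. The median of the 9 was -0.34 in LETS1 cells and 0.25 in Co.vec cells, with -0.02 over all genes in each. WEE1, the mitotic kinase under E-box control, was higher by a log2 fold change of 0.57 in LETS1 cells and 0.78 in Co.vec cells, and NOCT, a phosphatase of NADP(H), by 0.35 in LETS1 cells and 0.53 in Co.vec cells (edgeR adjusted p 0.00303 or less). CDKN1A, an inhibitor of the cell cycle, was higher by 0.89 in LETS1 cells and 0.92 in Co.vec cells. NAMPT, the rate-limiting enzyme of NAD salvage, was lower, at -0.34 in LETS1 cells and -0.45 in Co.vec cells (edgeR adjusted p 1.41e-08 or less), and so were KLF9, at -1.04 in LETS1 cells and -1.57 in Co.vec cells, and PPARA, at -0.63 in LETS1 cells and -0.44 in Co.vec cells. PPARGC1A, a coactivator that works with ROR receptors, was lower with TGF-β, at -1.05 in LETS1 cells and -0.86 in Co.vec cells, and higher in LETS1 than in Co.vec cells, at 0.74 with TGF-β and 0.93 in buffer (edgeR adjusted p 3.65e-07 and 1.21e-11).

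Of 11 CREB and glucocorticoid receptor targets, a group that shares its inducers with PER1, 5 were higher in LETS1 than in Co.vec cells in buffer, where 8.57% of all genes were, and the others did not pass: NR4A1 at 1.80, DUSP1 at 1.70, FOS at 1.67, CRISPLD2 at 1.28 and SIK1 at 0.76 on the log2 scale (edgeR adjusted p 0.0111 or less). The median of the 11 was 0.22, with 0.01 over all genes. This list too was written with earlier results of these counts known, so nothing is read from the count. SIK1 did not pass without the first LETS1 library in buffer (0.55, adjusted p 0.137). PER1 itself was at 0.21 in that comparison and did not pass. The 6 listed genes that did not pass were SGK1 at 0.22 (edgeR adjusted p 0.1377), KLF9 at 0.11 (0.694), FKBP5 at 0.05 (0.593), TSC22D3 at 0.0025 (0.989), ERRFI1 at -0.02 (0.871) and CREM at -0.02 (0.877). With TGF-β against buffer, SGK1 was higher, by 0.51 in LETS1 cells and 0.62 in Co.vec cells, and ERRFI1 lower, at -0.47 in LETS1 cells and -0.31 in Co.vec cells (edgeR adjusted p 5.1e-05 or less). CREM was higher at 0.25 in LETS1 cells (edgeR adjusted p 0.00112) and stood at 0.15 in Co.vec cells (0.0558).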
